A study of Mus musculus with 11 samples.

Results

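The ribosome footprints of 10 genes of the antioxidant defence were followed in mouse liver. They were Nfe2l2 (ENSMUSG00000015839), which encodes the transcription factor NRF2, and 9 genes of enzymes or enzyme subunits. The NRF2 targets were Nqo1 (ENSMUSG00000003849), Hmox1 (ENSMUSG00000005413), Gclc (ENSMUSG00000032350), Gclm (ENSMUSG00000028124), Gsr (ENSMUSG00000031584) and Srxn1 (ENSMUSG00000032802). The enzymes that act on reactive oxygen directly were Cat (ENSMUSG00000027187), Sod1 (ENSMUSG00000022982) and Sod2 (ENSMUSG00000006818). The genes were chosen by name and Ensembl identifier, and all 10 were among the 22019 genes of the count table. All livers were from male wild-type (WT) mice, and the diet was either chow or HFHS, rich in fat and sugar, which the column names of the count table call HFD. Strain, age and length of feeding are not in the labels. Footprints of about 30 nt come from single ribosomes (monosomes), and footprints of about 60 nt come from a ribosome stacked against its neighbour (disomes), as happens when the trailing ribosome runs into a slow or stopped one. There were 3 chow and 3 HFHS monosome libraries, and 3 chow and 2 HFHS disome libraries. The study's title concerns translation impaired by reactive oxygen species. These genes were compared between diets as genes of the antioxidant defence, and neither oxidants nor NRF2 protein were measured here.

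NRF2 is held at a low level in unstressed cells by KEAP1, which directs it to the proteasome. Oxidants and electrophiles modify KEAP1, and NRF2 then accumulates and binds antioxidant response elements together with small MAF proteins. Its classical targets make glutathione (Gclc, Gclm), recycle it (Gsr), reduce quinones (Nqo1), break down haem (Hmox1) and repair overoxidised peroxiredoxins (Srxn1). Catalase and the superoxide dismutases remove hydrogen peroxide and superoxide directly, are abundant in hepatocytes and also respond to other regulators.

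Because NRF2 targets are defined by this DNA element, the 250 bases upstream of the annotated start were searched for its core on both strands, in RefSeq promoter sequences (build GRCm38.p6) matched by gene symbol. Sequences were at hand for 7 of the 10 genes: Nfe2l2, Nqo1, Gclm, Srxn1, Cat, Sod1 and Sod2. None was at hand for Gsr, nor for Hmox1 and Gclc, the genes called for the diet below. A window without a match does not exclude an element beyond the 250 bases. The letters TGACNNNGC occurred in 3 of these 7 windows, and in 10.2% of the 32851 windows of that length in the table. The stricter letters TGANTCAGC, which overlap the first motif where N is C, occurred in 1 of the 7 and in 1.02% of all windows. The 4 windows with a match are shown 5′ to 3′ on the gene's strand, with the match in capitals. The Nfe2l2 window is chr2:75704664-75704913 on the minus strand, and its match begins 240 bases before the start. The Gclm window is chr3:122245307-122245556 on the plus strand, with a match in reverse orientation beginning 134 bases before the start. The Srxn1 window is chr2:152105274-152105523 on the plus strand, with its match 45 bases before the start. The Sod1 window is chr16:90220512-90220761 on the plus strand, with a match in reverse orientation 56 bases before the start. A match describes the letters alone, and footprint counts do not measure whether NRF2 was bound there.
Nfe2l2: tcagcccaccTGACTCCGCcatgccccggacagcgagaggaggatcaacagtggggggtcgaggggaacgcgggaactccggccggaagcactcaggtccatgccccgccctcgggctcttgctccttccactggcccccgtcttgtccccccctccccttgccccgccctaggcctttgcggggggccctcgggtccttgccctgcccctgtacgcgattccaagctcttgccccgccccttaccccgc
Gclm: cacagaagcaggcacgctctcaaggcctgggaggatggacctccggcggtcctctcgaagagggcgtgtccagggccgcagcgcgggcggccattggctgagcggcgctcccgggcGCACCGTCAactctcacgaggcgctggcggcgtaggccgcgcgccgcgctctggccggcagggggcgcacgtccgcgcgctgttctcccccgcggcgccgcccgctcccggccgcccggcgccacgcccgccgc
Srxn1: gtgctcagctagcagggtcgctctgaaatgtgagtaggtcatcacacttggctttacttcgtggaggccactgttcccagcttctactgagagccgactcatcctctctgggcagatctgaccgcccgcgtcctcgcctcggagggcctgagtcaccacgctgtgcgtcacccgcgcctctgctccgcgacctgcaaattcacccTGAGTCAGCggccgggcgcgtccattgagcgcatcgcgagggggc
Sod1: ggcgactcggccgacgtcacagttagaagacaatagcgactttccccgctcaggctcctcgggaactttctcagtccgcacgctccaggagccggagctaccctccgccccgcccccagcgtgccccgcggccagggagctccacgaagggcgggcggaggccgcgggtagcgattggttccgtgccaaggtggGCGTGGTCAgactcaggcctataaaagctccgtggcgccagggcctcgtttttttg

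Depth set what could be seen. Library totals were 795145 to 1248781 counts in chow monosomes, 1196240 to 1612324 in HFHS monosomes, 147212 to 279331 in chow disomes and 235748 to 238837 in HFHS disomes. Levels are given in CPM, a gene's count scaled to a common library total, after TMM scaling within a footprint class, so a monosome CPM and a disome CPM do not share a scale. A count of 3 corresponded to 1.86 to 3.77 CPM in a monosome library and to 10.7 to 20.4 CPM in a disome library. Barcode AGCTA differed from the other chow barcodes in both classes. Over 2156 genes with a mean above 50 CPM its libraries correlated with the other chow libraries at r = 0.82 and 0.83 in monosomes and 0.79 and 0.79 in disomes, against 0.98 and 0.96 between those others, and results that rest on them are given without them. The files do not pair identifiers with gene names, so liver and other cell-type markers were not analysed here, nor were lists of other NRF2 targets.

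Together the 10 genes took 0.548% to 0.608% of the counts in chow monosomes and 0.638% to 0.657% in HFHS monosomes, without overlap. In disomes they took 0.770% to 0.885% in chow and 0.892% to 0.898% in HFHS. These shares mainly follow Cat, the gene of catalase, which held between 58.6% and 70.6% of the 10 genes' counts in each library. Without Cat the share was 0.188% to 0.235% in chow monosomes and 0.188% to 0.238% in HFHS monosomes, so that the diets overlapped.

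**Figure D1:**
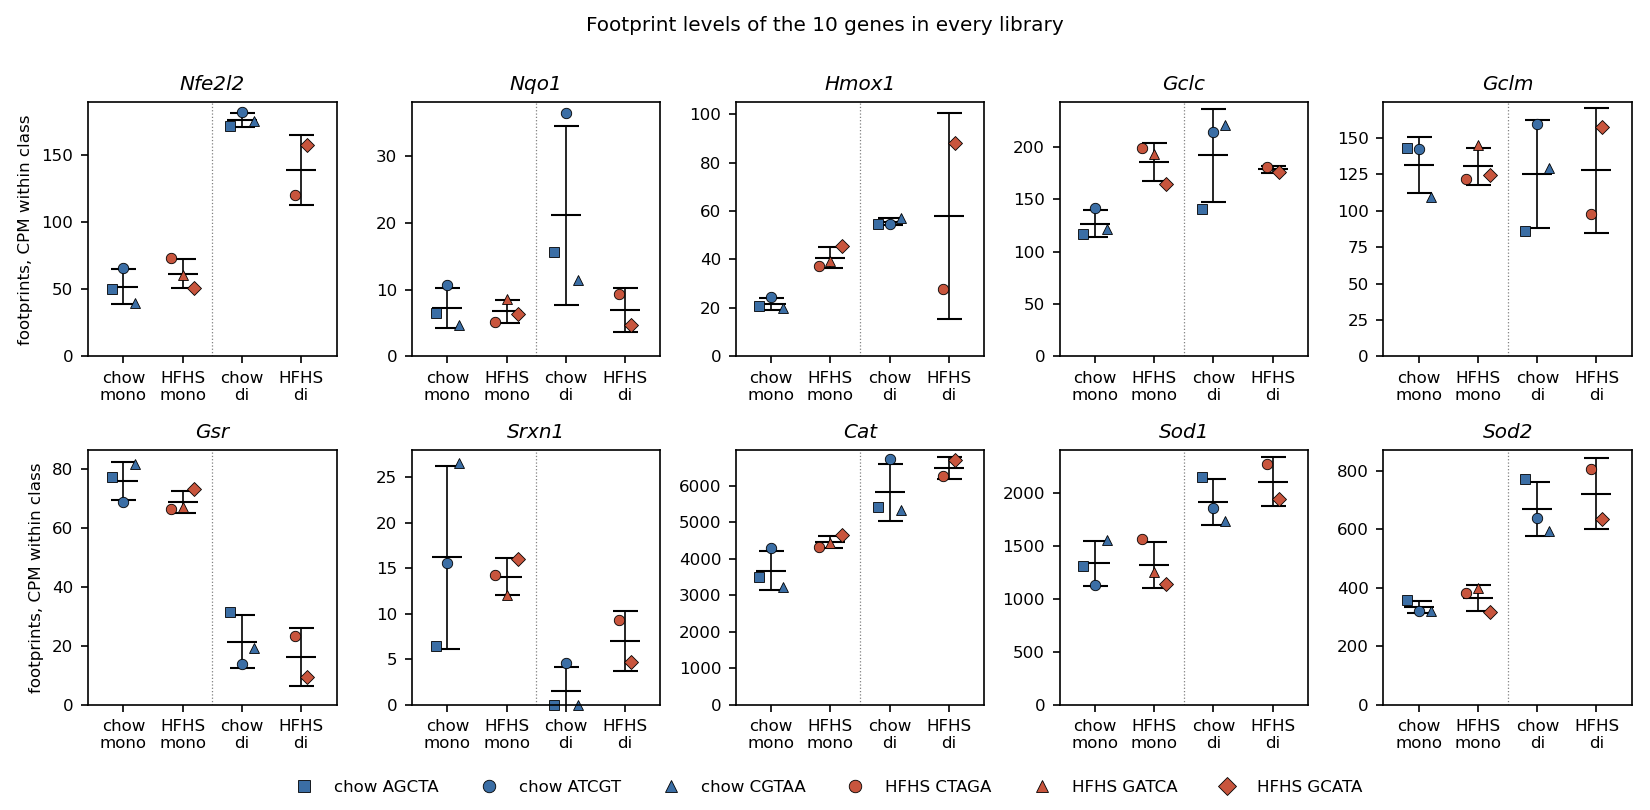
Footprint levels of the 10 genes in every library, in CPM after TMM scaling within the footprint class, on linear axes that start at 0. Symbols are libraries by barcode, horizontal bars are group means and vertical bars are the SD; the HFHS monosome symbols lie above all chow monosome symbols for Hmox1 and Gclc, and the 2 HFHS disome symbols of Hmox1 lie on either side of the 3 chow disome symbols.

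The first comparison asked whether the HFHS diet changed the share of monosome footprints that fell on these coding sequences. Counts were scaled between libraries, so a change common to all genes would not be seen. Hmox1 and Gclc rose with HFHS, by 1.87-fold and 1.46-fold. The other 7 genes tested did not pass, including the NRF2 gene itself and Gclm, the partner subunit of Gclc. Of the 10 genes, 9 passed the filter on low counts, and 2 of these 9 passed an adjusted p of 0.05, both upward. Among all genes tested, 4.65% passed, 3.02% upward and 1.63% downward. The median log2 fold change was 0.13 over the 9 genes and -0.02 over all genes tested.

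Hmox1 encodes haem oxygenase 1, the inducible enzyme that opens the haem ring. Its monosome level was 20.6 (AGCTA), 24.5 (ATCGT) and 19.9 CPM (CGTAA) in chow and 37.3 (CTAGA), 39.5 (GATCA) and 45.5 CPM (GCATA) in HFHS. Every HFHS library thus lay above every chow library, with the highest chow value well below the lowest HFHS value. The counts behind these levels were 16, 30 and 21 in chow and 50, 46 and 71 in HFHS. The log2 fold change was 0.90 ± 0.22 (SE; edgeR adjusted p = 0.0152; n = 3 each). The call was lost without the chow library AGCTA (0.87, adjusted p = 0.0554), without the chow library CGTAA (0.84, adjusted p = 0.107) or without the HFHS library GCATA (0.81, adjusted p = 0.0746), while the size of the change stayed between 0.81 and 1.02 when any 1 library was left out.

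Gclc encodes the catalytic subunit of glutamate-cysteine ligase, which carries out the rate-limiting step of glutathione synthesis. Its monosome level was 117 (AGCTA), 141 (ATCGT) and 121 CPM (CGTAA) in chow and 199 (CTAGA), 193 (GATCA) and 165 CPM (GCATA) in HFHS. The groups did not overlap, and GCATA lay nearest to chow. The log2 fold change was 0.54 ± 0.14 (edgeR adjusted p = 0.0241; n = 3 each). The call was lost without AGCTA (0.49, adjusted p = 0.141), CGTAA (0.52, adjusted p = 0.144), CTAGA (0.50, adjusted p = 0.101) or GATCA (0.52, adjusted p = 0.073), and when all 11 libraries were fitted together (0.53, adjusted p = 0.063). The size stayed between 0.49 and 0.64 when any 1 library was left out.

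Gclm encodes the modifier subunit that raises the affinity of Gclc for glutamate. Its monosome level was 143 (AGCTA), 142 (ATCGT) and 109 CPM (CGTAA) in chow and 122 (CTAGA), 145 (GATCA) and 124 CPM (GCATA) in HFHS. The ranges of the diets overlapped in part, and the log2 fold change was -0.01 (95% interval -0.31 to 0.28). Gsr, glutathione reductase, which returns oxidised glutathione to its reduced form, had 68.7 to 81.6 CPM in chow and 66.5 to 73.1 CPM in HFHS, a log2 fold change of -0.13 (95% interval -0.47 to 0.20). Of the 3 genes of glutathione synthesis and recycling, the catalytic subunit alone passed the test. Whether its change differed from that of the other subunit was not tested.

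Nfe2l2 itself had monosome levels of 50.2 (AGCTA), 66.2 (ATCGT) and 39.9 CPM (CGTAA) in chow and 73.2 (CTAGA), 60.9 (GATCA) and 51.3 CPM (GCATA) in HFHS. The ranges overlapped, and the log2 fold change was 0.23 (95% interval -0.18 to 0.64, adjusted p = 0.635). Srxn1, sulfiredoxin, had 6.44 (AGCTA), 15.5 (ATCGT) and 26.6 CPM (CGTAA) in chow, a spread wider than the 12.01 to 16.03 CPM in HFHS. Its log2 fold change was -0.25 (95% interval -0.94 to 0.45), so that changes of these sizes in either direction could not be told from none. Nqo1, the quinone reductase, had 5 to 13 counts in a monosome library, 7.27 ± 3.03 CPM in chow and 6.74 ± 1.70 CPM in HFHS (SD, n = 3 each), and did not pass the count filter.

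Among the enzymes that remove reactive oxygen directly, no change passed the test in monosomes. Cat had 3516 (AGCTA), 4288 (ATCGT) and 3236 CPM (CGTAA) in chow and 4323 (CTAGA), 4429.7 (GATCA) and 4656 CPM (GCATA) in HFHS. All HFHS values lay above all chow values, but the chow library ATCGT came close to the lowest HFHS library. The log2 fold change of 0.28 ± 0.10 had an unadjusted p of 0.01 and an adjusted p of 0.12, and it passed without ATCGT (0.41, adjusted p = 0.0136). Sod1, the cytosolic copper-zinc superoxide dismutase, had 1132 to 1558 CPM in chow and 1144 to 1568 CPM in HFHS, a log2 fold change of -0.01 (95% interval -0.29 to 0.26). Sod2, the manganese superoxide dismutase of mitochondria, had 321 to 357 CPM in chow and 315 to 397 CPM in HFHS, a log2 fold change of 0.13 (95% interval -0.15 to 0.41). No measure of mRNA was used here, so a change in mRNA level cannot be told apart from a change in ribosomes per mRNA. In these whole-liver samples, fewer cells of a type and less RNA per cell cannot be told apart either.

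In disome footprints none of the 7 genes tested passed for the diet. Of the 10, 7 passed the count filter and 0 passed the edgeR threshold of adjusted p below 0.05, against 2.96% of all genes tested, 1.82% higher and 1.14% lower. None of the 7 had an unadjusted edgeR p below 0.05, against 375 of all 2804 genes tested. DESeq2 also called 0 of the 7. None passed without the chow library AGCTA either. The median log2 fold change was 0.06 over the 7 genes and -0.03 over all genes tested. The intervals were wider than in monosomes for each of the 7.

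The genes that rose in monosomes did not pass the test in disomes. Hmox1 had 54.7 (AGCTA), 54.7 (ATCGT) and 57.1 CPM (CGTAA) in chow disomes, which lay close together. In HFHS disomes it had 27.9 (CTAGA) and 88.1 CPM (GCATA), from 6 and 19 counts, so that 1 library lay below and the other above all chow libraries. The log2 fold change of 0.06 ± 0.41 (95% interval -0.75 to 0.87) averages libraries on either side of chow. Gclc had 141 (AGCTA), 214 (ATCGT) and 221 CPM (CGTAA) in chow disomes and 181 (CTAGA) and 176 CPM (GCATA) in HFHS disomes. Its log2 fold change was -0.15 ± 0.26 (95% interval -0.66 to 0.35). The HFHS values lay inside the chow range.

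Nfe2l2 had 172 (AGCTA), 182 (ATCGT) and 175 CPM (CGTAA) in chow disomes and 121 (CTAGA) and 158 CPM (GCATA) in HFHS disomes. Both HFHS values lay below all chow values, but the log2 fold change of -0.34 ± 0.28 did not pass (adjusted p = 0.656). Gclm had 85.9 to 159.6 CPM in chow and 97.5 to 157.7 CPM in HFHS. Cat had 5428 (AGCTA), 6729.7 (ATCGT) and 5333 CPM (CGTAA) in chow and 6276 (CTAGA) and 6708 CPM (GCATA) in HFHS, a log2 fold change of 0.15 (95% interval -0.16 to 0.47). Sod1 and Sod2 had log2 fold changes of 0.14 ± 0.17 and 0.12 ± 0.19, and their HFHS values overlapped those of chow. Nqo1, Gsr and Srxn1 did not reach the count filter, with 2, 8 and 3 disome counts in chow and 2 and 1 in HFHS for Nqo1, 4, 3 and 5 in chow and 5 and 2 in HFHS for Gsr, and 0, 1 and 0 in chow and 2 and 1 in HFHS for Srxn1.

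**Figure D2:**
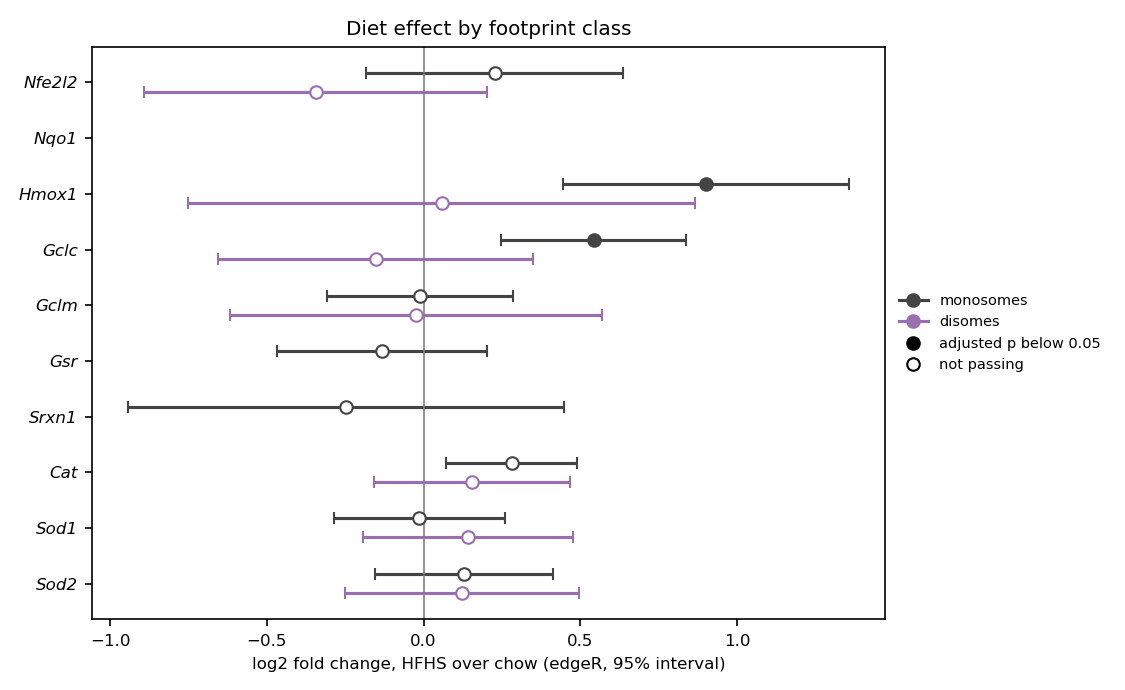
Log2 fold change of HFHS over chow for each gene (edgeR), with its 95% interval, in monosomes (upper, dark) and disomes (lower, purple). Filled symbols passed an adjusted p of 0.05, which only Hmox1 (0.90) and Gclc (0.54) did in monosomes; genes without a symbol in a class did not pass the count filter there.

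Whether the diet acted differently on disomes than on monosomes was tested for each gene in 1 model over all 11 libraries. No member passed, with 0 of 10 called and 0% of all 7236 genes called by edgeR. DESeq2 called 0 as well, as did edgeR without both AGCTA libraries. An unadjusted edgeR p below 0.05 was found for 1 of the 10 genes and for 358 of all 7236 genes. That gene was Gclc, whose diet effect was lower in disomes than in monosomes by a log2 difference of -0.60 ± 0.28 (95% interval -1.16 to -0.04, unadjusted p = 0.0356, adjusted p = 1). The difference was -0.76 ± 0.47 for Hmox1 and -0.49 ± 0.34 for Nfe2l2 (adjusted p = 1 for both), with 95% intervals of -1.69 to 0.18 and -1.17 to 0.18. The Hmox1 difference was -0.16 without the HFHS disome library CTAGA and -1.85 without GCATA, and that of Nfe2l2 ran from -0.75 to -0.32 over left-out libraries. The intervals of Hmox1 and Nfe2l2 reach from no difference to more than a 2-fold difference, and Nfe2l2 had not passed in monosomes. For Hmox1, a rise like that in monosomes is thus not shown to be absent from disomes. The Gclc interval lay below 0, but its difference did not pass after adjustment. The intervals of Cat (-0.37 to 0.29), Sod1 (-0.16 to 0.65) and Sod2 (-0.40 to 0.55) were narrower. The difference was 0.08 ± 0.32 for Gclm, and -0.06 ± 0.62 for Gsr on 12 chow and 7 HFHS disome counts. The value for Srxn1, 2.28 ± 1.56, rests on 1 chow and 3 HFHS disome counts and carries no usable size. That for Nqo1, -1.35 ± 1.03, rests on 13 chow and 3 HFHS disome counts. Nqo1 passed the count filter here through chow disome libraries alone, so its value is a description.

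The remaining comparisons asked how much disome signal each gene carried for its monosome level, within chow and within HFHS. For these ratios CPM was scaled by TMM over both footprint classes of a diet together. They therefore cannot be derived from the class-scaled levels given above. After this joint scaling, Nfe2l2 and Sod2 were higher in disomes in both diets. Hmox1 was higher in chow, and Cat was higher in both diets by a smaller margin. Gsr had the lowest values. In chow it passed the count filter through its monosome counts alone, and in HFHS it had only 5 and 2 disome counts, so its ratio is a description. In chow 8 of the 10 genes were tested, of which 4 were higher and 1, Gsr, lower in disomes. Among all genes tested in chow, 44.9% passed, with 21.6% higher and 23.3% lower. The difference in share was not tested, and 5 calls among 8 genes are not read as a trait of these genes. In HFHS all 10 were tested, of which 4 were higher and 1, again Gsr, lower, against 25.1% of all genes, 11.5% higher and 13.6% lower, and this difference in share was not tested. The members' median log2 ratio was 0.43 in chow and 0.07 in HFHS, against -0.01 and -0.07 over all genes tested. Monosome and disome libraries came from separately named pools (PF43 and PD49), so the footprint class and the pool cannot be told apart.

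Nfe2l2 had the highest edgeR ratio of the 8 genes tested in chow. Its log2 ratio of disome to monosome CPM, taken between libraries of the same barcode, was 1.52 (AGCTA), 1.26 (ATCGT) and 1.90 (CGTAA) in chow and 0.50 (CTAGA) and 1.42 (GCATA) in HFHS. All 5 values lay above 0, and CTAGA was lowest. In edgeR the log2 ratio was 1.52 ± 0.23 in chow, a 2.87-fold excess (adjusted p = 8.18e-07), and 0.96 ± 0.25 in HFHS, a 1.95-fold excess (adjusted p = 0.00534). The chow call held in all 14 alternative fits, between 1.32 and 1.70. In HFHS the call was lost without the disome library GCATA (0.72, adjusted p = 0.164). The difference between the diets is the one tested above for Nfe2l2, and it did not pass.

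Hmox1 had log2 ratios of 1.16 (AGCTA), 0.96 (ATCGT) and 1.28 (CGTAA) in chow, all well above 0. In HFHS they were -0.65 (CTAGA) and 0.75 (GCATA), which lay on opposite sides of 0. The edgeR value was 1.11 ± 0.33 in chow (adjusted p = 0.00548) and 0.29 ± 0.36 in HFHS (adjusted p = 0.601). The chow value rests on 7, 12 and 15 disome counts, and it passed in all 13 alternatives that tested it, without both AGCTA libraries too (1.04, adjusted p = 0.0326).

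Gsr had the lowest edgeR ratio of the genes tested in both diets. Its log2 ratios were -1.56 (AGCTA), -2.53 (ATCGT) and -2.34 (CGTAA) in chow and -1.74 (CTAGA) and -3.18 (GCATA) in HFHS, every one far below 0. The edgeR value was -2.15 ± 0.36 in chow (adjusted p = 5.97e-06) and -2.29 ± 0.43 in HFHS (adjusted p = 0.000163). Its monosome counts summed to 230 in chow and 281 in HFHS, while its disome counts summed to 12 and 7. The direction was the same in every alternative that tested Gsr. In chow, entry through the monosome counts favours a low ratio, so neither the adjusted p nor this repeat counts as support. So few disome counts also leave the size uncertain in both diets.

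The other glutathione genes did not share this low ratio. Gclc had log2 ratios of 0.01 (AGCTA), 0.40 (ATCGT) and 0.62 (CGTAA) in chow and -0.36 (CTAGA) and -0.10 (GCATA) in HFHS. Under the joint scaling all chow values were above and both HFHS values below 0. The 0 is set by that scaling, so values as near it as 0.01 and -0.10 do not settle a direction. The edgeR value was 0.42 ± 0.19 in chow (adjusted p = 0.0782) and -0.26 ± 0.21 in HFHS (adjusted p = 0.37), and neither passed. With the barcode as a block in chow, Gclc passed (0.41, adjusted p = 0.0443), as it did without the disome library AGCTA (0.52, adjusted p = 0.0405). Without both AGCTA libraries it did not pass (0.45, adjusted p = 0.13). Gclm had -0.99 in AGCTA and -0.03 and 0.01 in the other chow barcodes, and -0.54 and 0.14 in HFHS, with edgeR values of -0.24 ± 0.22 and -0.24 ± 0.24.

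The mitochondrial dismutase and catalase had ratios above 0 in every barcode. Sod2 had log2 ratios of 0.87 (AGCTA), 0.79 (ATCGT) and 0.64 (CGTAA) in chow and 0.86 (CTAGA) and 0.81 (GCATA) in HFHS. Its edgeR values were 0.76 ± 0.15 (adjusted p = 6.12e-05) and 0.77 ± 0.16 (adjusted p = 0.000528), and the HFHS call was lost by a small margin without the disome library CTAGA (0.58, adjusted p = 0.0525). Cat had log2 ratios of 0.38 (AGCTA), 0.45 (ATCGT) and 0.48 (CGTAA) in chow and 0.31 (CTAGA) and 0.33 (GCATA) in HFHS, which lay within a narrow band. Its edgeR values were 0.44 ± 0.12 (adjusted p = 0.00377) and 0.33 ± 0.12 (adjusted p = 0.0394). The chow call of Cat was lost without the monosome library CGTAA (0.32, adjusted p = 0.0576), without the disome library ATCGT (0.25, adjusted p = 0.0846) without both AGCTA libraries (0.41, adjusted p = 0.0535) and without the count filter (0.26, adjusted p = 0.0602). Its HFHS call held in 5 of 12 alternatives. It was lost by DESeq2 (adjusted p = 0.0812), without the count filter (adjusted p = 0.367) and without robust estimation (adjusted p = 0.0608). It was also lost without the monosome libraries CTAGA (adjusted p = 0.106) or GATCA (adjusted p = 0.0716) and without the disome libraries CTAGA (adjusted p = 0.0844) or GCATA (adjusted p = 0.258).

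Sod1 had log2 ratios of 0.46 (AGCTA), 0.51 (ATCGT) and -0.08 (CGTAA) in chow and 0.31 (CTAGA) and 0.56 (GCATA) in HFHS, with CGTAA alone below 0. It passed in HFHS (0.46 ± 0.14, adjusted p = 0.0161) and not in chow (0.29 ± 0.14, adjusted p = 0.0848), where it did pass with the barcode as a block (0.29, adjusted p = 0.00486) and with upper-quartile normalization (0.33, adjusted p = 0.0434). Without both AGCTA libraries the chow value was 0.14 (adjusted p = 0.563). The HFHS call was lost without the monosome library GATCA (0.43, adjusted p = 0.0603) and without the disome library CTAGA (0.34, adjusted p = 0.22), by DESeq2 (0.47, adjusted p = 0.0713) and without the count filter (0.32, adjusted p = 0.108). The diet difference of Sod1 was the test given above and did not pass. In the main fits Nqo1 and Srxn1 were tested in HFHS only, at log2 ratios of -0.14 ± 0.85 and -1.23 ± 0.74. There 3 disome counts each leave both undetermined at this depth, and Srxn1 passed the filter through its monosome counts. In chow, Srxn1 was called without the filter, with all 11 libraries in 1 fit, and without the disome library AGCTA or ATCGT. It had 1 chow disome count in all. Nqo1 was called in chow without the disome library CGTAA, on 2 and 8 disome counts. Such counts leave these calls undetermined as well.

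**Figure D3:**
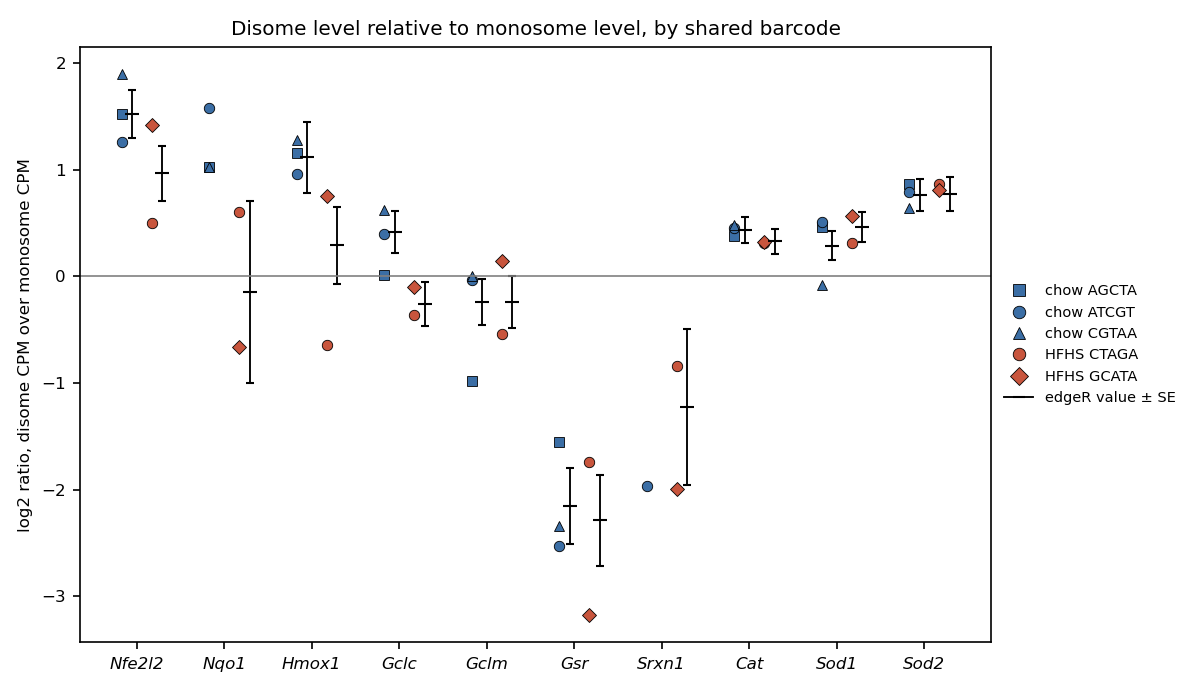
Log2 ratio of disome CPM to monosome CPM for each gene, between libraries of the same barcode (symbols, chow left and HFHS right of each pair), with the edgeR value and its SE (black) where the gene was tested. CPM here is after TMM scaling over both footprint classes of a diet together. Nfe2l2 and Sod2 lie above 0 in all 5 barcodes and Gsr lies below 0 in all 5; Srxn1 has no chow symbol for AGCTA and CGTAA, where it had no disome count.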

How the data were processed

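Footprints on coding sequences were counted in 11 liver libraries. The labels' protocols describe 200 mg of frozen tissue, RNase I digestion, gel selection from 10 µg of RNA, and an adaptor carrying a barcode and an 8 nt molecular identifier, added before pooling. Cutadapt 3.5 and Bowtie2 were used, per the submitters' processing notes. Not given in the sources used here were counter, build, strand setting and identifier use. The authors deposited raw counts, whole numbers without normalization. Column names give class, diet and barcode but no replicate number, so columns were placed in groups and named by barcode. Of the HFHS disome samples, replicates 1 and 3 of the labels were at hand, and replicate 2 was not analysed here.

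Every gene was tested by edgeR's robust quasi-likelihood F-test (version 4.0.16, R 4.3.3; two-sided) after TMM scaling and filterByExpr at a minimum count of 10, with Benjamini-Hochberg adjustment over all genes tested and a threshold of 0.05, in 5 comparisons. The SE of a log2 fold change is its size over the square root of F. Alternatives were DESeq2 1.42.0, no filter, a minimum count of 50, no robust estimation, upper-quartile normalization, all libraries in 1 fit, each library left out, and the barcode as a block. The fit without both AGCTA libraries was added after seeing the data. The scripts were tested on simulated data. All 10 genes were named in every comparison, with names that came with their identifiers. The members and lists were chosen with earlier results of these data known. Lists of other NRF2 targets, redox enzymes and cell-type markers, and levels per coding length, were not analysed here, since 0 identifiers matched the RefSeq gene table (assembly GRCm38.p6).

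As a check of pairing, libraries that share a barcode were compared in their deviations from the group means over genes. In chow r was 0.86 for AGCTA, 0.69 for ATCGT and 0.70 for CGTAA, against at most 0.56 between different barcodes. Deviations within a group sum to 0, and AGCTA lay apart in both classes. The values for ATCGT and CGTAA therefore largely mirror AGCTA and cannot establish that their libraries are paired. Blocked values stand beside chow results whose call they change, as an alternative only. In HFHS r was 0.09 for CTAGA and 0.29 for GCATA. With 2 HFHS disome libraries, the r with the other barcode was the same value with opposite sign by construction (-0.09 and -0.29). The labels name neither a shared animal for a barcode nor separate animals for the samples, so a p-value covers the sample-to-sample spread alone, which may be technical. The floor of 3 counts covers counting error only.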

Additional observations from a re-analysis of the deposited data

How the results depend on the processing

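Leaving out 1 library at a time gave 0 to 3 called members for the diet in monosomes, 2 to 5 for disomes against monosomes in HFHS and 4 to 7 in chow. For the diet in monosomes, DESeq2 called 1 (Gclc; Hmox1 received no adjusted p, at a log2 fold change of 0.91), a minimum count of 50 left 1 (Gclc; Hmox1 was not tested) and the fit of all 11 libraries called 1 (Hmox1). In chow, 3 of the 5 remained with a minimum count of 50, under which Hmox1 and Gsr were not tested. In HFHS, 3 were called by DESeq2 and 3 without the filter. The members called were 0 for the diet in disomes and for the difference of diet effects under every alternative. Small changes that did not pass turned sign. The monosome diet effect of Gclm was 0.0061 without the filter and 0.0106 with upper-quartile normalization, and that of Sod1 was 0.0013 with the latter. Across left-out libraries it ran from -0.13 to 0.060 for Gclm, -0.54 to 0.26 for Srxn1 and -0.15 to 0.12 for Sod1. In disomes Gclm was 0.01 with DESeq2, 0.066 without the filter and 0.055 with all libraries, and left-out libraries gave -0.39 to 0.31 for Gclm, -0.056 to 0.28 for Sod2 and -0.98 to 0.67 for Hmox1. The difference of diet effects ran from -0.35 to 0.38 for Gclm, -0.86 to 0.41 for Gsr, -0.19 to 0.090 for Cat and -0.11 to 0.20 for Sod2. It was -0.011 for Sod2 with upper-quartile normalization, and -0.15 for Gclm and 0.16 for Gsr without both AGCTA libraries. The HFHS log2 ratio ran from -0.80 to 0.88 for Hmox1, -0.66 to 0.056 for Gclm and -0.73 to 0.23 for Nqo1. With the barcode as replicate block, 7 of 8 members tested were called in chow, 5 of 10 in HFHS and 0 for the difference of diet effects. Among all genes the block called 1145 higher and 1191 lower of 4713 in chow. In HFHS it called 945 higher and 1089 lower of 7437. With the block, Nqo1 turned to 0.0385 in HFHS. Among all genes, the diet calls in monosomes were 204 higher and 110 lower, against 161 and 56 by DESeq2, 125 and 76 at a minimum count of 50, and 85 and 57 without the chow library CGTAA. Without the chow library ATCGT, where 3 of 9 members were called, they were 203 and 117 of 7059 genes. In disomes the diet calls were 51 and 32, against 16 and 10 by DESeq2. Disomes against monosomes gave 1017 and 1097 calls in chow, against 412 and 486 at a minimum count of 50. Without the chow disome library AGCTA, where 7 of 9 members were called, they were 998 and 1169 of 6306 genes. In HFHS they were 854 and 1010, against 629 and 611 by DESeq2. Without the HFHS monosome library GCATA, where 5 of 8 members were called, they were 825 and 837 of 5448 genes. The difference of diet effects gave 0 calls, and 7 lower with the block, none of them a member. The cause of these changes was not tested, other than the fewer genes tested under the stricter filter. Disome depth limits Nqo1, Gsr and Srxn1 most.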
